A study of Mus musculus with 5 samples.

Results

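This account follows 10 genes that write, erase or read out DNA methylation and Polycomb marks in mouse blood progenitors. The genes were Dnmt1, Dnmt3a, Dnmt3b, Tet1, Tet2, Tet3, Ezh1, Ezh2, Bmi1 and Asxl1, chosen by name from the 15287 genes in the table of counts, and all 10 were present in it. Their transcripts were counted in 12893 single bone marrow cells from 5 libraries made on a 10x Genomics Chromium instrument, where a unique molecular identifier (UMI) marks each captured transcript. Cells were also divided by whether they held a UMI of Mki67 or Top2a, genes of dividing cells.

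All mice carried the alleles Fgd5CreERT2/+Rosa26Tomato/+, were 20 weeks old and had received no treatment. A green reporter (ZsGreen) and CreERT2 are made from the Fgd5 locus of this strain. Fgd5 is a gene of hematopoietic stem cells (HSCs). Lin-kit+ cells, a mix of blood progenitors, lacked lineage markers and carried CD45.2 and c-kit. They made up 3 libraries (a, b and c). In the Fgd5+ library, Lin-kit+ cells were sorted for the reporter, and in the HSC-Fgd5+ library also for Sca1, CD150 and absence of CD48. Both are called reporter-positive here. The table names libraries by a barcode suffix only, and the suffixes were matched to populations by cell number: 793 cells for Fgd5+, 519 for HSC-Fgd5+ and 11581 for the other 3 together. Every difference between populations rests on this match. Titles and sources of the reporter-positive samples contradict each other as to which had the full HSC gate. This conflict bears on which of these libraries is called HSC-Fgd5+. The number of mice is not given, so n counts libraries, and p-values measure only the spread between libraries, which may be technical. The reporter-positive libraries differ in their gates but were tested as replicates, so their spread may also hold this difference.

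DNA methylation in mammals is copied to new strands after replication by Dnmt1 and set at new sites by Dnmt3a and Dnmt3b, while the Tet enzymes oxidize 5-methylcytosine and so open the way to its removal. Polycomb repressive complex 2 (PRC2) methylates histone H3 at lysine 27 through Ezh1 or Ezh2, PRC1, with Bmi1 among its subunits, ubiquitinates histone H2A, and Asxl1 is part of the deubiquitinase complex (PR-DUB) that removes this mark. Several of these genes, among them DNMT3A, TET2, ASXL1 and EZH2, are recurrently mutated in human myeloid disease.

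The libraries held 2166655 to 36080242 UMIs, with a median of 3721 to 6567 UMIs per cell. Levels are given as counts per 1000000 UMIs of the library (CPM). The sort was visible in the counts, since Ly6a, which encodes Sca1, stood at 267 CPM in the Fgd5+ and 264 CPM in the HSC-Fgd5+ library against 12.9 to 15.04 CPM in the Lin-kit+ libraries. Cd48 stood at 6.24 and 1.85 CPM against 188 to 199 CPM. Of the reporter-positive cells, 677 of 793 and 463 of 519 fell into a cluster with HSC markers, which took up 18 of the 11581 Lin-kit+ cells. Another cluster, left unnamed, had the same 9 supporting HSC markers and held 97 and 48 reporter-positive and 3 Lin-kit+ cells. Its leading genes included the megakaryocyte marker Vwf and none of the HSC markers. At clustering resolution 0.5, the HSC cluster held 780 of 793 and 512 of 519 reporter-positive cells. A filter on depth (1000 UMIs) and on mitochondrial UMIs (under 10%) kept 405 of 519 cells in the HSC-Fgd5+ library and 790 of 793 in the Fgd5+ library, and the calls of the 10 genes held with the cells it kept. The summed level of 6 endothelial markers was 96.0 and 108 CPM in the reporter-positive libraries against 24.9 to 28.6 CPM in the others. Of these markers, Cdh5, which defines endothelial cells, had 1 and 0 UMIs in the reporter-positive libraries, while Cldn5 had 71 and 60. Summed erythroid markers stood at 2039 and 2127 CPM against 582 to 748 CPM. Only 7 (Fgd5+ library) and 10 (HSC-Fgd5+ library) of these 11 markers had any UMI, whereas each Lin-kit+ library had all 11. The sum does not show which markers carried it. Clusters named erythroid-like held 0 and 2 reporter-positive cells, beside 1053 Lin-kit+ cells. Megakaryocyte markers stood at 600 and 465 CPM against 172 to 214 CPM, and neutrophil markers at 2026 and 617 CPM against 78607 to 91125 CPM. The part of these markers in the differences below was not tested.

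The question of the first comparison was how the regulators differ between reporter-positive and all Lin-kit+ cells. De novo methyltransferases, Tet1, Ezh1 and Bmi1 were higher in reporter-positive libraries, and Dnmt1, Tet2 and Ezh2 were lower, so that 8 of the 10 genes passed the test at an adjusted p of 0.05, 5 of them higher and 3 lower. Of all 11991 genes tested, 63.1% passed, 32.7% higher and 30.4% lower, so a call alone does not set a gene apart here. All 10 genes passed the filter on low counts. Fold changes were fitted with TMM scaling, under which the median log2 fold change of all genes was 0.07. Scaling by library totals, as CPM does, moved that median to 0.60, so fitted changes lie below CPM ratios.

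**Figure D1:**
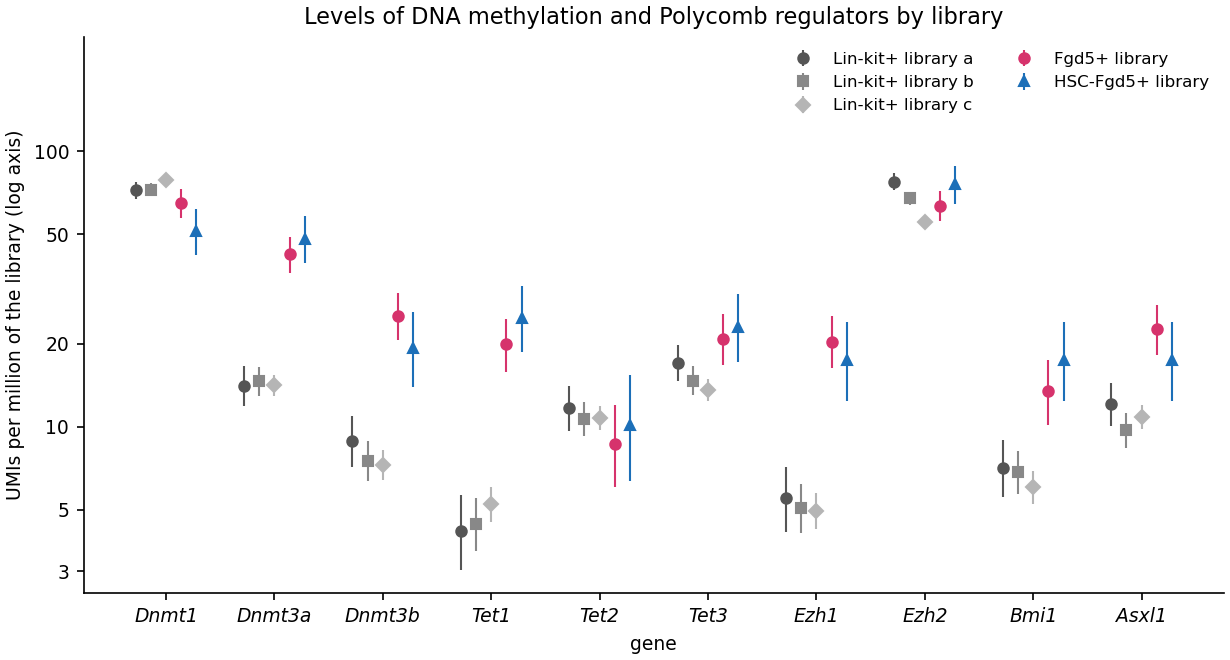
CPM of the library (log axis) for each of the 10 genes in the 5 libraries, with exact 95% Poisson intervals that cover counting error only. Dnmt3a, Dnmt3b, Tet1, Tet3, Ezh1, Bmi1 and Asxl1 are higher in both reporter-positive libraries than in every Lin-kit+ library, whereas the Ezh2 levels of the groups overlap. The share of all genes with such a gap was not counted.

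Among the methyltransferases, maintenance and de novo enzymes went opposite ways. Dnmt1 stood at 72.1, 72.6 and 78.6 CPM in a, b and c of the Lin-kit+ libraries, at 64.8 CPM in the Fgd5+ library and at 51.2 CPM in the HSC-Fgd5+ library. Both reporter-positive libraries lay below all others, and the fitted log2 fold change was -0.88 (SE 0.12, adjusted p = 6.24e-04). Dnmt3a stood at 14.1, 14.7 and 14.2 CPM in the Lin-kit+ libraries and at 42.2 and 48.0 CPM in the reporter-positive ones. The Lin-kit+ values differed by less than 1 CPM, and the log2 fold change was 1.11 (SE 0.11, adjusted p = 1.13e-04). Dnmt3b, the second de novo enzyme, stood at 8.90, 7.55 and 7.29 CPM against 25.2 and 19.4 CPM. The groups did not overlap, with a log2 fold change of 1.003 (SE 0.17, adjusted p = 0.00197). Within a library, the ratio of Dnmt3a to Dnmt1 UMIs was 0.196, 0.202 and 0.181 in the Lin-kit+ libraries and 0.652 and 0.937 in the reporter-positive ones. The exact permutation test over libraries gave p = 0.2 for this ratio (two-sided), the smallest value that 2 against 3 libraries allow.

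The Tet enzymes differed among themselves. Tet1 had the largest log2 fold change of the 10 genes, 1.69 (SE 0.17, adjusted p = 1.50e-04), with 4.20, 4.44 and 5.24 CPM in Lin-kit+ libraries against 19.9 and 24.9 CPM. Tet2 stood at 11.7, 10.7 and 10.8 CPM against 8.64 and 10.2 CPM, the last from 22 UMIs. The groups lay close to each other, and Tet2 was lower by the fit (log2 fold change -0.79, SE 0.15, adjusted p = 0.0036). Scaled by library totals, the Tet2 difference was -0.25 (adjusted p = 0.231) and was no longer called. For Tet3 the levels were 17.1, 14.7 and 13.6 CPM against 20.9 and 23.1 CPM. The fitted Tet3 change was 0.00 (95% interval -0.35 to 0.35, adjusted p = 0.996), but 0.54 (adjusted p = 0.0146) with library totals, so its size and call depend on the scaling. Tet1 and Tet2 UMIs stood in a ratio of 0.359 to 0.487 in the Lin-kit+ libraries and of 2.31 and 2.45 in the reporter-positive ones (exact permutation p = 0.2, the smallest possible).

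Of the alternative PRC2 methyltransferases, Ezh1 was higher in reporter-positive cells while Ezh2 was not. Ezh1 stood at 5.50, 5.08 and 4.96 CPM in the Lin-kit+ libraries against 20.4 and 17.5 CPM, a log2 fold change of 1.36 (SE 0.15, adjusted p = 2.39e-04). Ezh2 stood at 77.5, 67.4 and 55.3 CPM against 63.3 and 75.7 CPM, so the groups overlapped. With TMM scaling Ezh2 was lower (log2 fold change -0.48, SE 0.16, adjusted p = 0.0342), and with library totals it was at 0.05 (adjusted p = 0.779). The Ezh2 call was also lost without Lin-kit+ library b (adjusted p = 0.0925), the Fgd5+ library (0.204) or the HSC-Fgd5+ library (0.0526). The ratio of Ezh1 to Ezh2 UMIs, which no scaling changes, was 0.0710, 0.0754 and 0.0898 in the Lin-kit+ libraries and 0.322 and 0.232 in the reporter-positive ones, with no overlap (exact permutation p = 0.2, the smallest possible). In cells with a UMI of Mki67 or Top2a alone, it was 0.0566, 0.0579 and 0.0687 against 0.109 and 0.0674, and the groups overlapped (exact permutation p = 0.4).

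The PRC1 subunit Bmi1, needed for the self-renewal of HSCs, stood at 7.10, 6.85 and 6.04 CPM in the Lin-kit+ libraries and at 13.4 and 17.5 CPM in the reporter-positive ones. Its log2 fold change was 0.66 (SE 0.18, adjusted p = 0.0144), and 0.48 (adjusted p = 0.0869) without the HSC-Fgd5+ library. Asxl1 stood at 12.1, 9.74 and 10.9 CPM against 22.6 and 17.5 CPM. Its fitted change was 0.38 (95% interval -0.02 to 0.78, adjusted p = 0.0867), and 0.91 (adjusted p = 0.0022) with library totals.

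Shares of cells with a UMI were also compared with each cell thinned to 1000 UMIs, which leaves out 16 cells. For Dnmt3a, Dnmt3b, Tet1, Tet3, Ezh1, Bmi1 and Asxl1, both reporter-positive shares were above all Lin-kit+ shares. How many of all genes show such a gap was not counted. Dnmt3a was then detected in 1.34%, 1.27% and 1.46% of Lin-kit+ cells and in 5.17% and 4.89% of reporter-positive cells, and Ezh1 in 0.448%, 0.685% and 0.732% against 2.14% and 1.76%. Unthinned, Dnmt3a was seen in 6.13% to 9.34% of Lin-kit+ cells and in 18.0% and 17.3% of reporter-positive cells. Most cells thus held no UMI of any 1 regulator, and levels are described from sums over cells. No class of cells in these data is known to lack the regulators, so the share that free RNA gives was not measured.

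The Fgd5+ and HSC-Fgd5+ libraries were close to each other. With 1 library each there is no test, and none of the 8 regulators with at least 100 UMIs over both differed by 2-fold, while 1.65% of 6245 genes did. The ratio of HSC-Fgd5+ to Fgd5+ was lowest for Dnmt3b (0.770, 95% counting interval 0.525 to 1.11) and highest among these 8 for Tet1 (1.25, 0.872 to 1.78). Only the interval for Dnmt1 (0.791, 0.628 to 0.990) did not include 1. Bmi1, with 94 UMIs, had a ratio of 1.305 (0.841 to 2.01), and Tet2, with 58, one of 1.18 (0.659 to 2.05).

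Lin-kit+ cells span many lineages, so the reporter-positive libraries were also set against 1 named class of Lin-kit+ cells, a comparison added after the first results. This class, called lymphoid-primed multipotent-like from Flt3, Dntt, Satb1, Il12a and Cd34, held 175, 537 and 763 cells in libraries a, b and c. It joins a cluster led by Wfdc17 and Tespa1 with one led by Dntt and Il7r. At a finer resolution, an unnamed cluster of 457 Lin-kit+ cells that shares leading genes with the first (Wfdc17, Gm5111, P2ry14) carried the HSC markers Procr, Hlf, Mecom, Meis1 and Ly6a, so the class may hold stem-like cells. Against it, 3 of the 10 regulators were called, Ezh1 and Bmi1 higher and Dnmt1 lower, beside 43.1% of 9903 genes tested (22.8% higher and 20.3% lower). Ezh1 stood at 9.75, 9.42 and 9.02 CPM in these cells, between the levels of all Lin-kit+ and of reporter-positive cells (log2 fold change 0.82, SE 0.22, adjusted p = 0.0147). Bmi1, at 4.87, 9.42 and 6.40 CPM, differed by 0.87 (SE 0.30, adjusted p = 0.0393), and Dnmt1, at 89.7, 85.3 and 93.7 CPM, by -0.84 (SE 0.14, adjusted p = 0.0012).

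The de novo enzymes were high in this class already. Dnmt3b stood at 24.4, 25.1 and 20.1 CPM there, as against 25.2 and 19.4 CPM in the reporter-positive libraries. Its fitted difference was -0.22 (95% interval -0.67 to 0.24, adjusted p = 0.453). Dnmt3a stood at 31.2, 28.3 and 32.6 CPM, with a difference of 0.31 (SE 0.14, adjusted p = 0.107), and Tet1 at 9.75, 13.1 and 13.97 CPM, with one of 0.55 (SE 0.22, adjusted p = 0.0644). With library totals, which called 46.5% of genes here (33.2% higher and 13.3% lower), Dnmt3a (0.54, adjusted p = 0.0153) and Tet1 (0.77, adjusted p = 0.0166) were called higher, the 3 calls above held, and Dnmt3b was at 0.01 (adjusted p = 0.985).

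**Figure D2:**
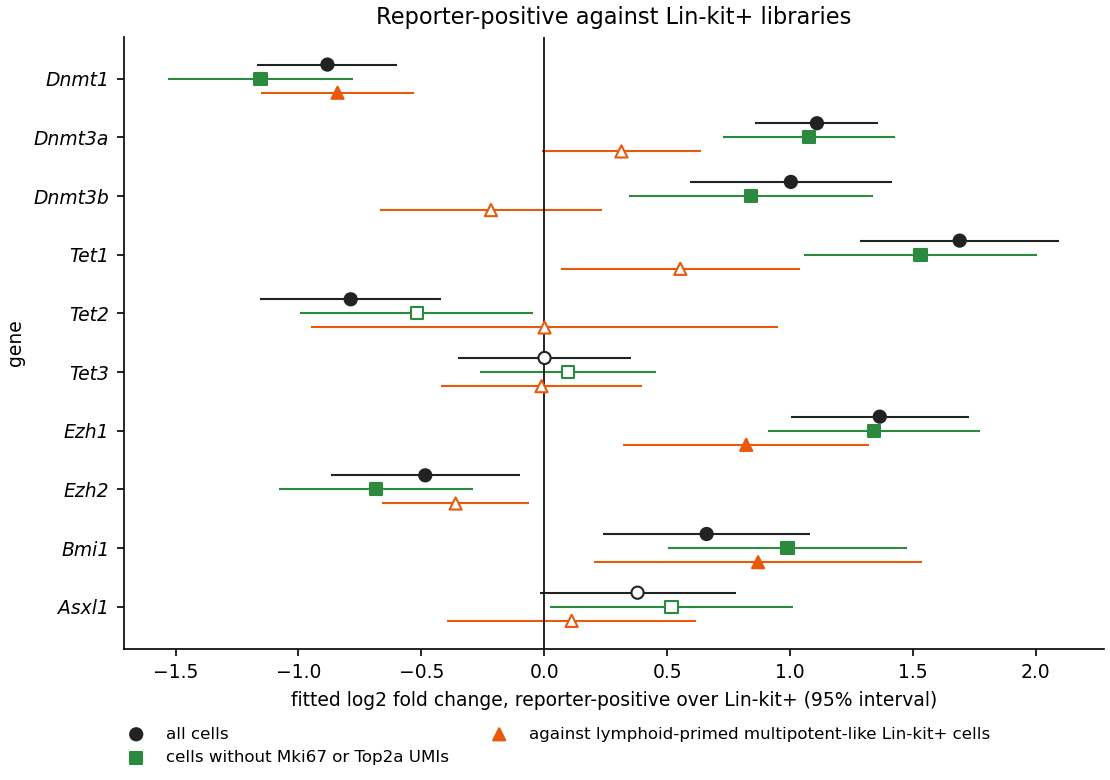
Fitted log2 fold change of reporter-positive over Lin-kit+ libraries with its 95% interval (edgeR, TMM scaling) for all cells, for cells without Mki67 or Top2a UMIs, and against lymphoid-primed multipotent-like Lin-kit+ cells, with filled symbols for an adjusted p under 0.05. Dnmt1 lies below 0 and Ezh1 and Bmi1 above it in all 3, whereas Dnmt3b moves from 1.003 to -0.22 in the last.

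The second question was how the regulators differ between cells with and without a UMI of Mki67 or Top2a. These cells made up 58.9%, 50.3% and 55.9% of the cells in the Lin-kit+ libraries (a, b, c), 16.6% of the Fgd5+ library (132 cells) and 14.8% of the HSC-Fgd5+ library (77 cells). The exact permutation test gave p = 0.2 (two-sided), the smallest possible. A UMI is found more easily in a deep cell, and the median was 5280 to 7918 UMIs in Lin-kit+ cells with and 3575 to 4925 in those without, 8552 and 4095 in the Fgd5+ library, and 6647 and 3568.5 in the HSC-Fgd5+ library. With every cell thinned to 1000 UMIs the shares were 20.2%, 20.9% and 22.5% against 6.18% and 7.05%.

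In Lin-kit+ cells, Ezh2 and Dnmt1 were higher in cells with these UMIs and Ezh1 was lower, 3 of 10 regulators, beside 28.1% of the 11612 genes tested (15.3% higher and 12.8% lower). Ezh2 stood at 86.4, 77.6 and 62.6 CPM in cells with and at 57.2, 52.5 and 41.2 CPM in cells without them. It was higher in 3 of 3 libraries, by a factor of 1.48 to 1.52, with a log2 fold change of 0.64 (SE 0.06, adjusted p = 7.67e-10). Dnmt1 stood at 79.9, 82.7 and 86.0 CPM against 54.2, 57.8 and 64.5 CPM (log2 fold change 0.53, SE 0.06, adjusted p = 3.36e-08). The levels with and without did not overlap between libraries. Ezh1 stood at 4.89, 4.50 and 4.30 CPM against 6.90, 5.95 and 6.22 CPM, lower in 3 of 3 libraries (log2 fold change -0.43, SE 0.16, adjusted p = 0.0449). This call was lost with DESeq2 (adjusted p = 0.283), after thinning (0.404) and without any 1 of the Lin-kit+ libraries (0.0734 to 0.298). Dnmt3a stood at 13.5, 12.8 and 13.2 CPM against 15.4, 17.5 and 16.1 CPM and missed the threshold (-0.27, SE 0.11, adjusted p = 0.0561). Its level was lower in cells with these UMIs in all 5 libraries. With library totals, or with at least 2 UMIs for the cell state, 2 regulators were called lower in place of 1. Fitted changes of the other 6 genes lay between -0.38 (Tet1, adjusted p = 0.0899) and 0.28 (Asxl1, adjusted p = 0.0904).

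In the reporter-positive libraries Ezh2 and Dnmt1 were again higher in cells with Mki67 or Top2a UMIs, and Bmi1 was lower, beside 17.0% of genes (9.82% higher and 7.23% lower). Ezh2 stood at 124 CPM with and 39.2 CPM without these UMIs in the Fgd5+ library and at 166 and 46.0 CPM in the HSC-Fgd5+ library (log2 fold change 1.68, SE 0.14, adjusted p = 3.77e-11). Dnmt1 stood at 123 and 41.6 CPM in the Fgd5+ and at 118 and 29.4 CPM in the HSC-Fgd5+ library (log2 fold change 1.64, SE 0.15, adjusted p = 3.77e-10). For both genes, the cells with these UMIs exceeded those of every whole Lin-kit+ library. Summed over these libraries, lymphoid-primed multipotent-like cells with such UMIs had 119 CPM of Dnmt1, near the reporter-positive values, and 97.7 CPM of Ezh2, below them. Bmi1 stood at 6.74 and 16.1 CPM and at 11.2 and 19.6 CPM, from 8 and 6 UMIs in the cells with them. Its log2 fold change of -1.13 (SE 0.37, adjusted p = 0.032) was lost with DESeq2 (adjusted p = 0.12), after thinning (0.471) and without the Fgd5+ (0.468) or HSC-Fgd5+ library (0.0714). Ezh1 stood at 13.5 and 23.1 CPM and at 11.2 and 19.6 CPM, a difference of -0.84 (SE 0.31, adjusted p = 0.0586). Dnmt3b, at 31.2 and 22.8 CPM and at 24.3 and 17.8 CPM, did not pass the test (0.40, adjusted p = 0.316), nor did the other 5 genes.

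**Figure D3:**
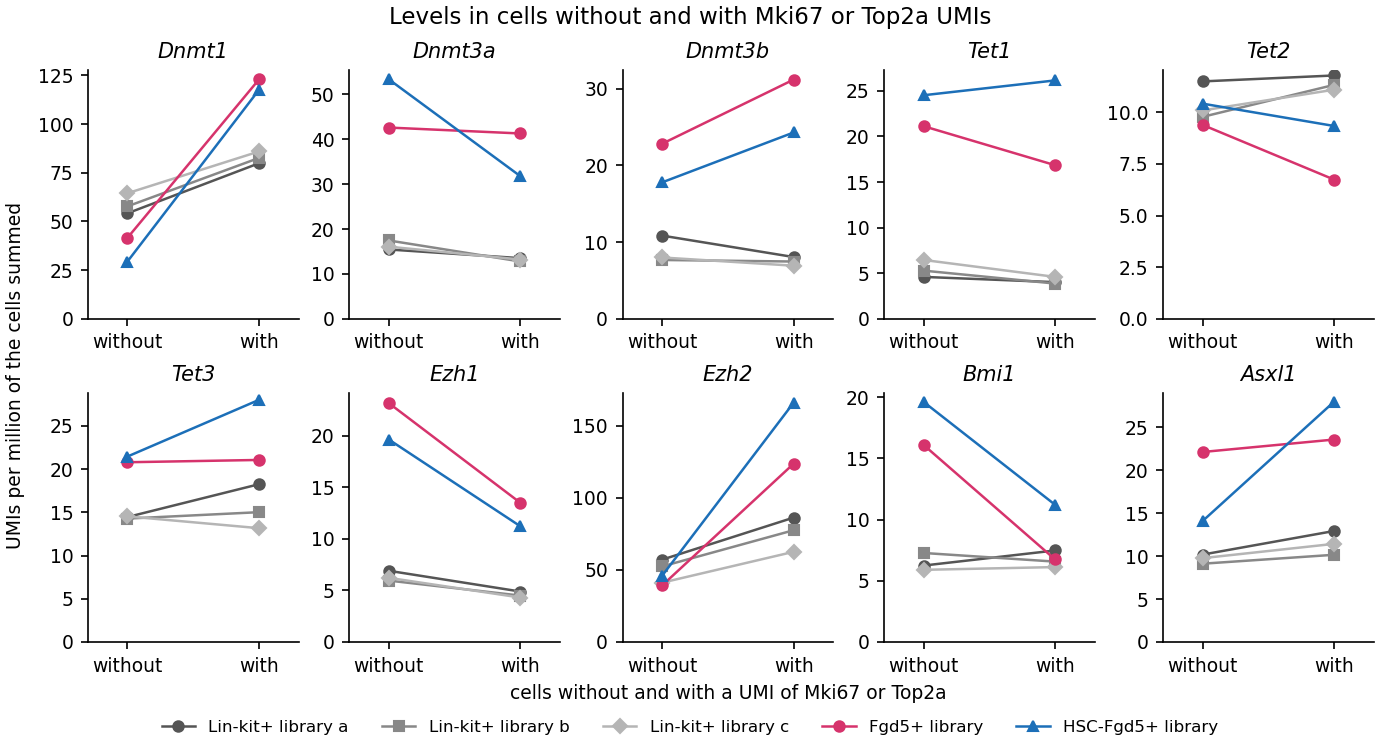
CPM of the cells summed, for cells without and with a UMI of Mki67 or Top2a, with 1 line per library and each axis from 0. The lines of Dnmt1 and Ezh2 rise in all 5 libraries and most in the reporter-positive pair, whereas those of Ezh1 and Dnmt3a slope the other way in all 5.

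The increase of Dnmt1 and Ezh2 was larger in the reporter-positive than in the Lin-kit+ libraries. Tested as an interaction, the difference of the log2 fold changes was 1.11 for Dnmt1 (SE 0.16, adjusted p = 7.23e-06) and 1.04 for Ezh2 (SE 0.15, adjusted p = 7.58e-06). Of all genes, 7.8% passed this test, 5.76% higher and 2.04% lower. The other 8 regulators did not pass it, with Bmi1 nearest (-1.21, SE 0.40, adjusted p = 0.0643). Both calls held with the cells divided after thinning (0.89 for Dnmt1 and 0.97 for Ezh2).

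Cells with and without these UMIs also differ in lineage, since the share with them ran from 13.5% in T or NK-like to 67.8% in monocyte or dendritic-like cells. The test was therefore repeated within the 4 largest named classes of Lin-kit+ cells, after the first results were known. Ezh2 was higher in all 4, with log2 fold changes of 0.37 in neutrophil-like (adjusted p = 0.0097), 0.70 in monocyte or dendritic-like (1.55e-07), 0.77 in lymphoid-primed multipotent-like (2.17e-05) and 0.90 in erythroid-like cells (4.96e-04). Dnmt1 was higher in all 4 too, by 0.27 (adjusted p = 0.0389), 0.52 (2.30e-05), 0.80 (2.08e-06) and 0.73 (0.0028) in the same order. The classes join clusters, whose part was not tested. Of erythroid-like cells, 13.6% of the Rec114-led and 68.75% of the Sphk1-led cluster held these UMIs. Dnmt1 stood at 69.1 CPM with and 36.0 CPM without them in the first, but at 86.1 and 92.6 CPM in the second. Summed over libraries, it was also not higher in the Ltf-led and the Ifi205-led cluster. In the other clusters of these classes it was higher. Of all genes tested, 14.1% were called in neutrophil-like cells (6.62% higher and 7.52% lower), 14.2% in monocyte or dendritic-like cells (6.69% and 7.49%), 18.9% in lymphoid-primed multipotent-like cells (10.3% and 8.61%) and 30.9% in erythroid-like cells (14.9% higher). Ezh1 was not called in the 3 classes where it was tested, at -0.23, -0.42 and -0.65 (adjusted p of 0.714, 0.475 and 0.300). Dnmt3a was lower only in lymphoid-primed multipotent-like cells (-0.62, adjusted p = 0.0426), and Asxl1 was higher only in monocyte or dendritic-like cells (0.70, adjusted p = 0.0453). Differences between the classes were not tested.

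Dnmt1 and Ezh2 moved together, whereas Ezh1 did not follow Ezh2, so their promoter sequences are shown. Each run is the 250 bases before a RefSeq start on build GRCm38.p6, in transcript direction, in lower case. All 4 words TTTCCCGC, TTTCGCGC, TTTGCCGC and TTTGGCGC, core forms of the site bound by the cell cycle factors of the E2F family, were searched on both strands, and a match is in capitals. Of 32851 promoters, 1.86% held a word, and of 14 listed for the 10 regulators 1 did. It was the most downstream of 3 Dnmt1 starts (chr9:20952624-20952873, minus strand), with TTTCGCGC on the opposite strand, at position -219 counted from this start. The window lies inside the Dnmt1 gene and downstream of the other listed starts, so part of it may be transcribed sequence. Only this Dnmt1 window is printed, and the windows of the other listed Dnmt1 starts held no word. The Ezh2 window (chr6:47595031-47595280, minus strand) and the Ezh1 window (chr11:101226464-101226713, minus strand) held none.
Dnmt1: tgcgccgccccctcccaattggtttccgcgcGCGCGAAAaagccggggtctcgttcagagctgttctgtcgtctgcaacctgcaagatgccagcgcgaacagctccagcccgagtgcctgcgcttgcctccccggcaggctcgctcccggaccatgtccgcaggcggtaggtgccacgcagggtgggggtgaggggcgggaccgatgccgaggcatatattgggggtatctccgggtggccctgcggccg
Ezh2: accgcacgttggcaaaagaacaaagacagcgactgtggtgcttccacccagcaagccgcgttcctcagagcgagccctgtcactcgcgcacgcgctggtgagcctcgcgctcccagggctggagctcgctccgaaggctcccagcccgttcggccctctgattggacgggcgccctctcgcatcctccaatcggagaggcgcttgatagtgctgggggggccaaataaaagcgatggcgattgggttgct
Ezh1: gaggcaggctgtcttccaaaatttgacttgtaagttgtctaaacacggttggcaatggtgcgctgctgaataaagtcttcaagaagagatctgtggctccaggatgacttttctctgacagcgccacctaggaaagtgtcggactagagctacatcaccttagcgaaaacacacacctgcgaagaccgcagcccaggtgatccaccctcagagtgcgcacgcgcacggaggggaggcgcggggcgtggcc
A match is a description of the sequence and not of a bound site. On build mm10, Dnmt1 lies at chr9:20907209-20959888, Ezh2 at chr6:47530139-47595341 and Ezh1 at chr11:101191115-101226463, all on the minus strand (GENCODE M21).

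The third comparison left out cells with Mki67 or Top2a UMIs, to compare the populations with fewer dividing cells. Among the remaining cells 5 regulators were higher and 2 lower in reporter-positive libraries, beside 60.2% of 10486 genes (31.7% higher and 28.5% lower). Dnmt1 stood at 54.2, 57.8 and 64.5 CPM in Lin-kit+ libraries against 41.6 and 29.4 CPM, with a log2 fold change of -1.15 (SE 0.16, adjusted p = 3.56e-04). Ezh2 stood at 57.2, 52.5 and 41.2 CPM against 39.2 and 46.0 CPM, so the groups overlapped, with a change of -0.69 (SE 0.17, adjusted p = 0.0082), or -0.24 (adjusted p = 0.248) with library totals. The call was lost without the Fgd5+ library too (-0.58, adjusted p = 0.0906).

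The genes higher in reporter-positive cells remained so among cells without Mki67 or Top2a UMIs, some of which may still divide, since detection depends on depth. Dnmt3a stood at 15.4, 17.5 and 16.1 CPM against 42.6 and 53.3 CPM (1.08, SE 0.15, adjusted p = 3.59e-04), and Tet1 at 4.5997, 5.29 and 6.46 CPM against 21.1 and 24.5 CPM (1.53, SE 0.21, adjusted p = 2.79e-04). Ezh1 stood at 6.90, 5.95 and 6.22 CPM against 23.1 and 19.6 CPM (1.34, SE 0.19, adjusted p = 3.40e-04), and Bmi1 at 6.24, 7.27 and 5.89 CPM against 16.1 and 19.6 CPM (0.99, SE 0.21, adjusted p = 0.0037). In none of these 4 did the groups overlap, but the share of all genes without overlap was not counted. Dnmt3b was higher by 0.84 (SE 0.22, adjusted p = 0.0091), a call lost without the Fgd5+ library (0.60, adjusted p = 0.155) and with DESeq2 (0.73, adjusted p = 0.0532). Tet2 (-0.52, adjusted p = 0.0568), Asxl1 (0.52, adjusted p = 0.0677) and Tet3 (0.10, adjusted p = 0.639) were not called. With library totals 7 regulators were higher and 1 lower, since Asxl1 (0.97, adjusted p = 0.0040) and Tet3 (0.55, adjusted p = 0.0139) were then called. Of all 10486 genes, 5320 were higher and 1778 lower with that scaling. In these cells the ratio of Dnmt3a to Dnmt1 UMIs was 0.249 to 0.302 in Lin-kit+ libraries and 1.02 and 1.81 in the reporter-positive ones, where Dnmt3a UMIs outnumbered those of Dnmt1 (exact permutation p = 0.2, the smallest possible). Against lymphoid-primed multipotent-like cells without Mki67 or Top2a UMIs, 4 regulators were called, beside 39.5% of genes (20.7% higher and 18.8% lower). Bmi1 (1.36, SE 0.33, adjusted p = 0.0067) and Ezh1 (0.79, SE 0.26, adjusted p = 0.0313) were higher, and Dnmt1 (-1.06, SE 0.18, adjusted p = 8.10e-04) and Ezh2 (-0.63, SE 0.17, adjusted p = 0.0117) were lower.

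Within the Lin-kit+ libraries the regulators were described over 7 named classes of at least 50 cells, without a test, since classes come from clustering, from which the regulators were left out. Values are means ± SD of 3 libraries. Dnmt1 ran from 38.9 ± 37.8 CPM in T or NK-like cells (52 cells, 8 UMIs) over 50.02 ± 8.12 in mast or basophil-like, 59.4 ± 9.14 in neutrophil-like, 66.9 ± 6.54 in erythroid-like, 85.2 ± 4.16 in monocyte or dendritic-like and 89.6 ± 4.19 in lymphoid-primed multipotent-like to 102 ± 3.04 CPM in megakaryocyte-like cells. Neighbours in this order lay within their spread of each other, apart from the step between erythroid-like and monocyte or dendritic-like cells and the last step, where the megakaryocyte-like value rests on 70 UMIs.

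Dnmt3a and Dnmt3b were high in lymphoid-primed multipotent-like cells, at 30.7 ± 2.21 and 23.2 ± 2.72 CPM, and lowest in neutrophil-like cells, at 9.74 ± 0.538 and 3.38 ± 0.782 CPM. Monocyte or dendritic-like cells came next to lowest, at 12.5 ± 0.858 and 6.18 ± 0.190 CPM. Dnmt3a was nominally highest in T or NK-like cells, at 56.0 ± 13.3 CPM from 8 UMIs. The 5 clusters of neutrophil-like cells differed further. The cluster led by Gfi1 and Mgam had 18.5 ± 2.01 CPM of Dnmt3a and 7.69 ± 2.25 CPM of Dnmt3b, the one led by Vcam1 and Clec4b2 4.76 ± 1.87 and 0.900 ± 0.899 CPM, and those led by Ltf and by Ifitm6 2.60 ± 2.42 and 4.94 ± 1.24 CPM of Dnmt3a and 0.617 ± 0.564 and 0.182 ± 0.315 CPM of Dnmt3b. Dnmt1 in the same order was 69.9 ± 8.59, 58.7 ± 19.7, 52.4 ± 1.85 and 40.6 ± 7.06 CPM, and Ezh2 54.6 ± 8.45, 44.5 ± 12.4, 41.1 ± 16.7 and 27.9 ± 7.59 CPM. The fifth, of 86 cells and led by Rhou and Itgam with Ltf among its top genes, had 6.73 ± 7.23 CPM of Dnmt3a and 0.533 ± 0.922 CPM of Dnmt3b, but 66.6 ± 12.6 CPM of Dnmt1 and 62.9 ± 11.9 CPM of Ezh2, within the spread of the Gfi1 cluster. Ltf, which encodes lactoferrin, is a gene of later neutrophil precursors and is among the top genes of the Ifitm6 cluster too. Mki67 or Top2a UMIs were held by 46.4% of cells in the Gfi1, 56.5% in the Vcam1 and 89.6% in the Ltf cluster. In the Ifitm6 cluster 48.7% of cells held them, and in the Rhou cluster 77.9%.

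The Tet genes peaked in different classes. Tet1 was highest in mast or basophil-like cells at 19.8 ± 4.21 CPM, followed by 12.3 ± 2.23 CPM in lymphoid-primed multipotent-like cells, and lay at 2.87 ± 0.201 and 2.46 ± 0.584 CPM in monocyte or dendritic-like and neutrophil-like cells. Tet2 was highest in monocyte or dendritic-like cells at 16.5 ± 0.770 CPM, within the spread of the 15.2 ± 4.63 CPM in mast or basophil-like cells. A cluster of this class led by the class II antigen-presentation genes H2-Eb1 and Cd74 had 28.0 ± 9.57 CPM of Tet2 from 17 UMIs. Tet3 lay between 14.6 and 21.8 CPM in 6 classes and at 8.70 ± 1.98 CPM in neutrophil-like cells.

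Ezh1 was highest in lymphoid-primed multipotent-like cells at 9.40 ± 0.364 CPM and lowest in neutrophil-like cells at 3.89 ± 0.652 CPM. Ezh2 ranged least of the 10 genes, from 45.8 ± 8.26 CPM in mast or basophil-like and 46.0 ± 7.24 CPM in neutrophil-like to 83.1 ± 18.7 CPM in monocyte or dendritic-like and 83.4 ± 40.8 CPM in megakaryocyte-like cells. Most neighbouring classes did not differ beyond their spread. The class II cluster had 28.1 ± 2.05 CPM of Ezh2, and another cluster of that class led by Ifi205 and Cd209a 126 ± 14.4 CPM. The shares of cells with Mki67 or Top2a UMIs were 9.43% in the first and 90.0% in the second. Bmi1 lay between 4.31 ± 1.43 CPM in neutrophil-like and 10.5 ± 0.767 CPM in erythroid-like cells, apart from 32.2 ± 33.3 CPM from 3 UMIs in T or NK-like cells. Asxl1 lay at 7.39 ± 2.07 CPM in neutrophil-like and at 16.8 ± 2.60 CPM in erythroid-like cells. Neutrophil-like cells thus had the lowest mean of the 7 classes for 7 of the 10 genes, the exceptions being Dnmt1, Tet2 and Ezh2. How many of all genes were lowest in this class was not counted, so this does not set the regulators apart. CPM is a share of all UMIs, and 13 neutrophil markers alone took 78607 to 91125 CPM of the Lin-kit+ libraries. Their part in these low levels was not tested.

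**Figure D4:**
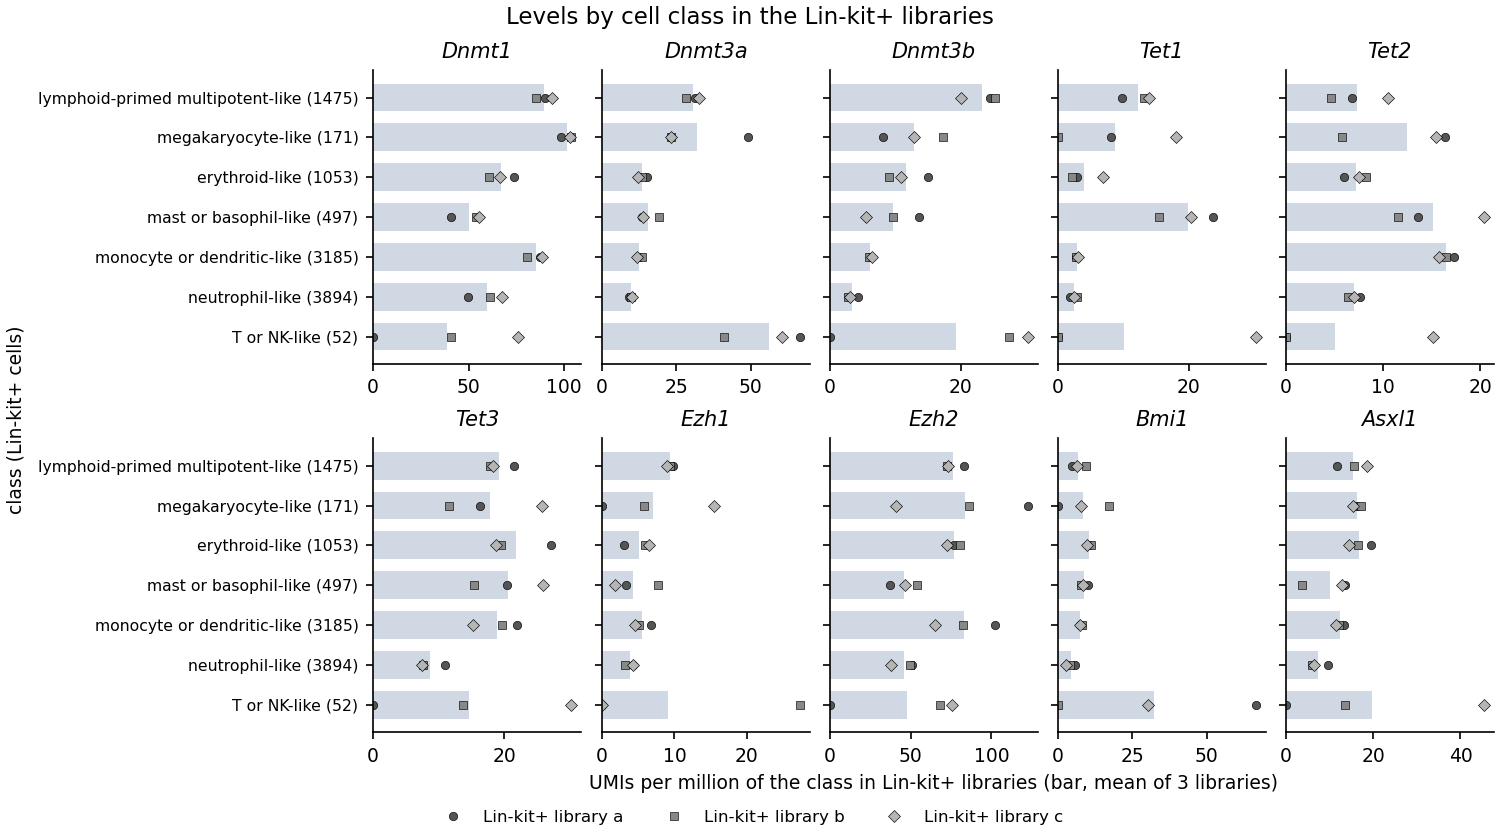
CPM of the class in the Lin-kit+ libraries, by named class with its number of Lin-kit+ cells, as the mean of 3 libraries (bar) and each library (symbols). Dnmt3b and Ezh1 peak in lymphoid-primed multipotent-like, Tet1 in mast or basophil-like and Tet2 in monocyte or dendritic-like cells, and the T or NK-like bars rest on 52 cells.

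Genes with a like pattern over these 7 classes were looked up among 8085 genes with at least 300 UMIs, as a description only, since 7 points that share libraries give high correlations readily. The nearest to Dnmt1 was Wdr20 (Pearson r = 0.984), to Dnmt3b Slf1 (0.996), to Ezh1 Elf2 (0.990), to Ezh2 Gtf3c2 (0.983) and to Bmi1 Cdk12 (0.982). Nearest to Asxl1 were Slc7a1 (0.998) and Nsd1 (0.992), which encodes a histone methyltransferase.

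The 10 regulators act with partners, and 52 further genes of these systems were followed. In reporter-positive against Lin-kit+ libraries 16 of the 52 were higher and 13 lower, beside the 32.7% and 30.4% of all genes. With library totals 26 were higher and 7 lower, beside 6579 and 1995 of all 11991 genes. Of 19 PRC1 genes 9 were higher and none was lower with either scaling (14 higher with totals), with a median log2 fold change of 0.64 against 0.07 for all genes. Cbx7, a chromodomain subunit, stood at 0.700, 0.910 and 0.998 CPM in Lin-kit+ and at 12.5 and 13.4 CPM in reporter-positive libraries (log2 fold change 3.27, SE 0.22). Cbx6, a related subunit, stood at 9.95 to 12.9 CPM against 103 and 100.2 CPM (2.60, SE 0.13). Of 9 PRC2 genes 1 was higher and 4 lower (3 and 3 with library totals). The one higher was Phf1, a PRC2 accessory protein, with 0.700 to 1.45 CPM against 14.4 and 12.9 CPM (2.92, SE 0.27). The 4 lower were the core subunits Eed (-1.04), Suz12 (-0.96), Rbbp4 (-1.07) and Rbbp7 (-0.37), of which Rbbp7 was at 0.17 (adjusted p = 0.115) with library totals.

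Of 9 genes of maintenance methylation and its readers 2 were higher and 4 lower (3 and 2 with library totals), among them Uhrf1, which brings Dnmt1 to newly copied DNA, at 55.4, 58.1 and 58.7 CPM against 25.4 and 21.2 CPM (-1.82, SE 0.11), and the replication clamp gene Pcna at 192 to 231 CPM against 97.4 and 120 CPM (-1.51, SE 0.12). Of 7 genes of demethylation and repair 1 was higher and 3 lower (2 and 2 with library totals), with Idh1, whose product makes the 2-oxoglutarate that Tet enzymes use, at 80.1 to 85.9 CPM against a mean of 23.995 CPM (-2.34, SE 0.09). Of 8 genes of PR-DUB and the lysine 27 demethylases 3 were higher and 2 lower (4 and 0 with library totals). Eed, Suz12, Rbbp4 and Rbbp7 were named after their values were seen. All values named for these partners passed the test at an adjusted p of 0.05 with TMM scaling. Among cells without Mki67 or Top2a UMIs 15 of 50 partners tested were higher and 9 lower, beside 31.7% and 28.5% of all genes. With library totals 25 were higher and 6 lower, beside 5320 and 1778 of all 10486 genes.

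**Figure D5:**
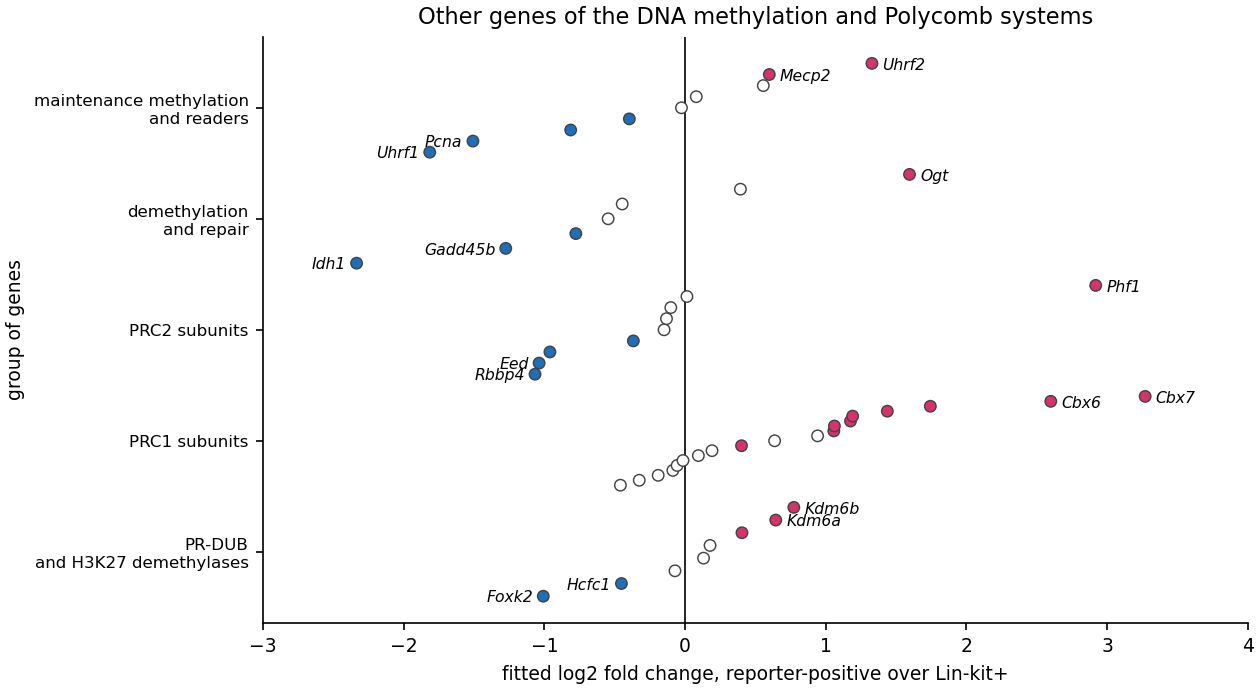
Fitted log2 fold change of reporter-positive over Lin-kit+ libraries (TMM scaling) for the 52 partner genes in 5 groups, each point 1 gene, filled for an adjusted p under 0.05 (red higher, blue lower). None of the 19 PRC1 genes is called lower, and Cbx7, Phf1 and Cbx6 lie farthest to the right.

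Between cells with and without Mki67 or Top2a UMIs in Lin-kit+ libraries, 9 of the 52 partners were higher and 5 lower, near the 15.3% and 12.8% of all genes. With library totals 8 were higher and 6 lower, beside 1349 and 1987 of all 11612 genes. The higher ones included the PRC2 core genes Suz12 (0.54, SE 0.08), Eed (0.39, SE 0.07) and Rbbp4 (0.40, SE 0.05), which thus rose together with Ezh2, and Uhrf1 (0.43, SE 0.06) and Pcna (0.59, SE 0.05), which rose with Dnmt1. The largest increase was that of Foxk2 (0.86, SE 0.16), a partner of PR-DUB. Lower were Ogt (-0.78, SE 0.06), which encodes the O-GlcNAc transferase that binds Tet proteins, Phc1 (-0.69, SE 0.21) and the demethylase gene Kdm6b (-0.60, SE 0.18). Eed, Rbbp4 and Uhrf1 were named here after their values were seen. In reporter-positive libraries 8 were higher and 4 lower, beside 9.82% and 7.23% of all genes, among them, chosen in the same way, Uhrf1 (2.301, SE 0.22) and Phf19 (2.77, SE 0.71) higher and Phf1 (-2.40, SE 0.48) and Cbx6 (-0.55, SE 0.14) lower.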

How the data were processed

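Single-cell RNA libraries were made from sorted bone marrow cells of Fgd5CreERT2/+Rosa26Tomato/+ mice. UMI counts per gene and cell were deposited by the authors as 1 table over all libraries, not normalized. The submitters' processing notes name Cell Ranger 1.3 and 2.1, Seurat 2.3.4 and build mm10, without saying which tool made which step. From these counts, UMIs were summed per library, or per library and cell state, and tested with the edgeR 4.0.16 quasi-likelihood test in R 4.3.3 (TMM scaling, filterByExpr, Benjamini-Hochberg adjustment over all genes tested, threshold 0.05). Cells with and without Mki67 or Top2a UMIs were compared with library as a block, leaving out both genes. DESeq2 1.42.0, library totals, no filter, each library left out, doublets left out, only cells of at least 1000 UMIs and under 10% mitochondrial UMIs, equal cell numbers, thinning and at least 2 UMIs for the cell state were alternatives.

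Poisson and Clopper-Pearson intervals are exact, at 95%, and cover counting error only. With 2166655 to 36080242 UMIs per library, counting error is widest in the HSC-Fgd5+ library. Libraries shared 62 barcodes, and cells were kept apart by suffix. Scrublet marked 154 cells (1.19%) as doublets, which were kept and left out in an alternative. Clusters (Leiden, scanpy 1.11.5, Python 3.11.15, 2000 variable genes without Fgd5, the 10 genes and the 52 partners, 20 components, 15 neighbours, resolution 1) were named "-like" from at least 3 listed markers, so the names are rebuilt and not the authors' own. A cluster stayed unnamed where its leading genes held more markers of another class. The same held for clusters of low depth without a marker of their class among the leading genes. The edgeR tests were also run on simulated counts with a small set of genes changed in both directions. Since most genes were left unchanged there, this cannot decide between TMM scaling and library totals. Gene positions are from GENCODE M21 and promoters from RefSeq (GRCm38.p6).

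All 10 genes were reported in every comparison. Partner genes were named as the 3 higher and 3 lower called genes of largest change with at least 100 UMIs, and others are marked where they appear. Like-patterned genes are those of highest r. The members and lists were chosen with earlier results of these data known. The fits within classes and against lymphoid-primed multipotent-like cells were added after seeing the data.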

Additional observations from a re-analysis of the deposited data

Results flagged for a closer look

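The difference between cells with and without Mki67 or Top2a UMIs was larger in the reporter-positive than in the Lin-kit+ libraries for Dnmt1, by 1.1142 on the log2 scale (0.89 to 1.36 over the alternatives), and for Ezh2, by 1.0368 (0.96 to 1.15). Both passed the interaction test and both kept their call under every alternative run for this comparison. The state cells were also deeper in UMIs, at a median of 8552 against 4095 in the Fgd5+ library and 7918 against 4925 in Lin-kit+ library a, and the part of this depth in the difference was not tested beyond the thinning.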

How the results depend on the processing

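Dnmt1, Dnmt3a, Dnmt3b, Tet1 and Ezh1 kept their direction and call between all reporter-positive and all Lin-kit+ cells under every alternative other than the comparison with 1 class. With library totals Ezh2 turned to 0.0544. Against lymphoid-primed multipotent-like cells only, an alternative chosen after seeing the data, Dnmt3b turned to -0.22 and Tet2 to 0.0011 (0.22 with library totals). There, 4272 genes and 3 regulators were called (4601 and 5 with library totals) in place of 7568 and 8, and among cells without Mki67 or Top2a UMIs 3611 genes and 4 regulators in place of 6314 and 7, with Dnmt3b at -0.34. Between cells with and without these UMIs in Lin-kit+ libraries, 3268 genes were called, but 1481 with DESeq2, 1466 after thinning, 1209, 1280, 1339 and 1799 within neutrophil-like, monocyte or dendritic-like, lymphoid-primed multipotent-like and erythroid-like cells, and 1614 to 3522 without 1 library. Requiring 2 UMIs raised the regulators called from 3 to 5. In reporter-positive libraries 1979 genes were called, 1227 after thinning and 817 to 2050 without 1 library, and for the difference between populations 906, or 421 to 1012. The lowest of these came without Lin-kit+ library c in the first case and without the Fgd5+ library in the others. With only 1 reporter-positive library left, it was assumed to vary like the other group. Library totals moved the share of called genes that were higher from 51.8% to 76.7% between all cells, from 52.6% to 75.0% among cells without these UMIs, from 54.4% to 40.4% between states in Lin-kit+ libraries and from 73.8% to 86.9% for the difference. DESeq2 moved it from 57.6% to 69.2% in reporter-positive libraries. At clustering resolution 2, 6 of the 10 regulators had the same highest class. The mean share of cells with Mki67 or Top2a UMIs was 55.0% in Lin-kit+ libraries, 21.2% after thinning and 36.1% with at least 2 UMIs, and 15.7%, 6.61% and 9.54% in reporter-positive ones. Leaving out doublets, or cells under 1000 UMIs or with 10% mitochondrial UMIs or more, changed no call of the 10 genes. The causes of these changes were not tested. No paired analysis was possible because the labels carry no replicate numbers, as far as populations are compared, while cell states were compared within libraries. Depth limits Bmi1, Tet2 and Ezh1 in reporter-positive cells with Mki67 or Top2a UMIs, which held 5 to 16 UMIs per library.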
